A study of Mus musculus with 6 samples.

Results

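The 8 genes described here, whose products are made for, stored in or released with the granules of cytotoxic lymphocytes, were followed through 6 droplet libraries of mouse kidney and mammary tumor. They were the granzymes Gzma, Gzmb, Gzmc and Gzmk, the pore-forming protein gene Prf1, the granule membrane protein gene Nkg7, the chemokine gene Xcl1 and the cathepsin gene Ctsw. The list was given by name, and the 8 symbols were found in the feature lists of both tissues, among 31053 genes. The cells were classed with marker genes that did not include any of the 8, so that a class was not chosen by the genes measured in it.

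Cytotoxic T cells and natural killer (NK) cells kill by emptying granules onto a bound target cell. Perforin, the product of Prf1, opens pores through which the granzymes, a family of serine proteases, reach the inside of the target. Granzymes A and K cut after basic residues, granzyme B cuts after aspartate and triggers apoptosis, and granzyme C belongs to a rodent group of genes that lies beside Gzmb. Nkg7 takes part in granule release, cathepsin W is a papain-like protease of NK and CD8 T cells, and XCL1 (lymphotactin) is a chemokine that draws dendritic cells carrying its receptor XCR1.

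In GENCODE annotation of the GRCm38 (mm10) build, Gzma lay at chr13:113093825-113100981 and Gzmk at chr13:113171608-113225908, both on the minus strand. Gzmc at chr14:56231441-56234656 and Gzmb at chr14:56258838-56262260 also lay near each other on the minus strand. Prf1 lay at chr10:61297833-61304680 and Nkg7 at chr7:43437073-43438249, both on the plus strand, and Xcl1 at chr1:164931644-164935527 and Ctsw at chr19:5465043-5468507, both on the minus strand. The files gave them the identifiers ENSMUSG00000023132 (Gzma), ENSMUSG00000042385 (Gzmk), ENSMUSG00000079186 (Gzmc), ENSMUSG00000015437 (Gzmb), ENSMUSG00000037202 (Prf1), ENSMUSG00000004612 (Nkg7), ENSMUSG00000026573 (Xcl1) and ENSMUSG00000024910 (Ctsw).

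RefSeq sequence (GRCm38.p6) of the 250 bases before the start was matched for 7 of the 8 genes. The 4 granzymes of the list are shown, 5′ to 3′ on the minus strand. Capitals mark matches on either strand to the core letters TGACGT (cyclic AMP response element, CRE), TGAGTCA (AP-1), TGTGGT (Runx), AGGTGT (T-box) and AGGAAG (Ets), which occurred in 6.47, 4.46, 14.0, 11.8 and 29.5% of 32851 windows of the same length before genes. A match describes the letters only. The RefSeq starts of Gzmb and Gzmk differ from the ends of the GENCODE genes given above, and that of Gzmk lies inside the GENCODE gene.
Gzma, chr13:113100982-113101231: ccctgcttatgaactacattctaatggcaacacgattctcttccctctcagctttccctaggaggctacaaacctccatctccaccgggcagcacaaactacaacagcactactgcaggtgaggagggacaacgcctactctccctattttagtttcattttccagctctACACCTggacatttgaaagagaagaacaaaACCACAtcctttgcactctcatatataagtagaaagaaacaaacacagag
Gzmk, chr13:113180966-113181215: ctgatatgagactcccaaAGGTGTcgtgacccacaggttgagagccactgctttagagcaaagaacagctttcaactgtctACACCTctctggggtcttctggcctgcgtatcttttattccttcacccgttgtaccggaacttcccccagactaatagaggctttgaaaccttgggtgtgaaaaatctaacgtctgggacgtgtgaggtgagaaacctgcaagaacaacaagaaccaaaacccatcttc
Gzmb, chr14:56262335-56262584: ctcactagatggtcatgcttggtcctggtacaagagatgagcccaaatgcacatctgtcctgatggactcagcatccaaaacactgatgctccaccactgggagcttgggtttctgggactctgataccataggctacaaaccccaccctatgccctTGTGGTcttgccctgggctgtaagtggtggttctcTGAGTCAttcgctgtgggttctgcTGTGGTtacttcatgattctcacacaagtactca
Gzmc, chr14:56234658-56234907: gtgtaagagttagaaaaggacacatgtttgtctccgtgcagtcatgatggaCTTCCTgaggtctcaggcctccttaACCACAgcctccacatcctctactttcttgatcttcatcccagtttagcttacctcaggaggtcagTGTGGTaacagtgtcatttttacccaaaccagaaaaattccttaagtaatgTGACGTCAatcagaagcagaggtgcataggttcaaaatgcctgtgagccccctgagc
The Gzmb window held the AP-1 letters and 2 Runx matches, and the Gzmc window 2 Runx matches, an Ets match and the CRE letters on both strands at overlapping positions. The Gzma window held 1 Runx and 1 T-box match, and the Gzmk window 2 T-box matches and none of the others. Of the 239 distinct 12-base words of the Gzmc window, 51 also stood in that of Gzme, 43 in that of Gzmg, 34 in that of Gzmd and 29 in that of Gzmf. These are genes of the same granzyme group, while 0 words stood in the windows of Gzma, Gzmb or Gzmk.

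The study set cells from a microfluidic digestion and filter device beside cells from conventional dissociation. Kidneys came from 12-week-old male C57BL/6 mice and tumors from 10-week-old female MMTV-PyMT mice, in which the mouse mammary tumor virus promoter, active in mammary epithelium, drives the polyoma middle T oncogene. Minced tissue of both was digested with type I collagenase, either for 60 min as the control or in the device, from which cells of the same run were collected at 15 min and 60 min, and live cells were sorted before loading on a droplet chip. There was 1 library per tissue and condition, so differences between conditions could not be checked against replicates, no test was possible and no p-value is given. All intervals are exact 95% intervals, binomial (Clopper-Pearson) for shares, Poisson for levels and conditional for ratios, and cover counting error only. Where a count was 0, the upper limit given is instead that of 3 counts in the number of cells. Values were counts of unique molecular identifiers (UMIs), each standing for 1 captured RNA molecule, and levels are given as CPM, the UMIs of a gene on a counts-per-million scale of all UMIs of the same cells. UMIs mark 3′ ends, so that levels were not divided by gene length.

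The libraries held 69691783 to 116998401 UMIs in 8233 to 13719 kidney cells and 90414805 to 101222030 UMIs in 8152 to 8198 tumor cells. After the filters, 5886 to 9936 kidney cells and 5736 to 6024 tumor cells remained per library, with 24592 and 44563 UMIs of the 8 genes in all. The median share of mitochondrial UMIs was 20.4% in the kept cells of the 15 min kidney library and 7.38 and 8.59% in the others, and its part in the values below was not tested. Libraries of a tissue shared 16 to 211 cell barcodes.

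A cell was gated to a lineage when it held UMIs of at least 2 genes of its marker list. T-gated cells carried genes of the CD3 chains or the T cell receptor alpha constant region and numbered 539 in kidney and 404 in tumor. NK-gated cells carried receptor genes such as Ncr1 and Klrb1c and numbered 166 and 47, and 55 and 56 cells passed both gates. Klrd1, an NK receptor gene outside the lists, was found in 91.0 and 91.5% of NK-gated cells of kidney and tumor, and the T cell receptor beta gene Trbc2 in 35.5 and 76.6%, so that in both tissues the NK gate also took cells with a T cell receptor transcript. A further 241 kidney and 408 tumor cells met a T or NK gate and another lineage. In kidney 52.3% of these also met the proximal tubule gate and 32.8% that of macrophages, and in tumor 66.2% met the epithelial and 31.4% the macrophage gate. They were kept apart, and whether they were 2 cells in a droplet, lymphocytes with free RNA or cells of both kinds cannot be told apart.

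Most UMIs of the 8 genes lay in cells with a T or NK gate. Such cells held 97.4% of the granule gene UMIs of kidney and 92.0% of those of tumor. Lymphocyte-gated cells with no other lineage held 75.7% (75.2 to 76.2) in kidney and 39.3% (38.9 to 39.8) in tumor, and those with another lineage 21.7% and 52.7%. For tumor Gzmc these shares were 46.6% and 34.5%, with 9.95% in epithelial cells, and for kidney Prf1 70.8% and 20.1%, with 6.09% in endothelial cells. NK-gated cells alone held 47.9% in kidney and 10.7% in tumor, and T-gated cells 21.8% in both. Proximal tubule cells, the largest kidney class, held 0.537% and tumor epithelial cells 3.32%. A kidney and a tumor value stand side by side here and below only as descriptions, since the 2 tissues were joined and normalized separately and differed in mouse strain, sex and age.

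**Figure D1:**
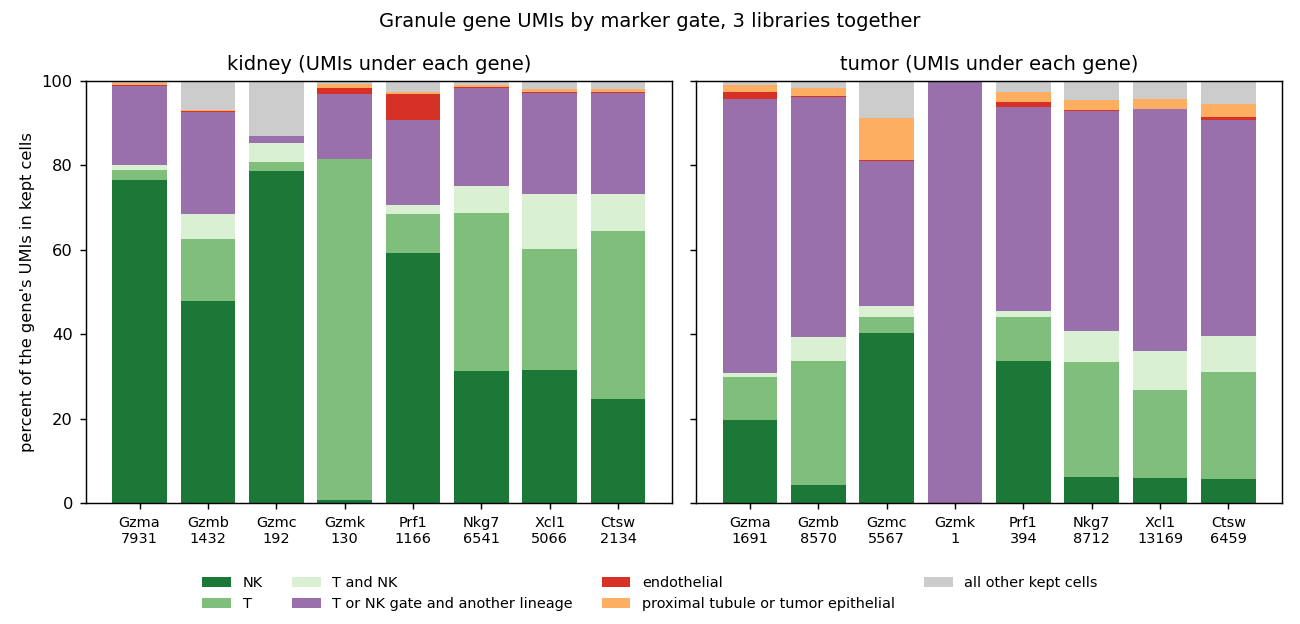
Share of each gene's UMIs in kept cells (y axis, percent) by marker gate, 3 libraries of a tissue together, with the number of UMIs under each gene. In kidney the lymphocyte gates hold most of every gene and T-gated cells hold 105 of the 130 Gzmk UMIs, while in tumor cells with a T or NK gate and another lineage hold 52.7% of the UMIs of the 8 genes, and the Gzmk bar rests on 1 UMI.

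Several of the genes were often found in the same cell. At least 4 of the 8 had a UMI in 150 of 166 NK-gated and 83 of 539 T-gated kidney cells, and in 37 of 47 and 98 of 404 tumor cells. Among T-gated cells of tumor, 50 of 99 CD8 cells and 0 of 60 CD4 cells held 4 or more. In proximal tubule cells the number was 0 of 12630, and in tumor epithelial cells 9 of 9332.

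Kidney NK-gated cells had the full set apart from Gzmc and Gzmk. Gzma was their highest granule gene, with 6667, 12343 and 8175 CPM in the control, 15 min and 60 min libraries, and was found in 118 of 166 cells. Nkg7 followed with 2680.1, 3797 and 2683 and a UMI in 165 of 166 cells. Both lay above their levels in T-gated cells in every library. Xcl1 stood at 1913, 734 and 3182 in 97 of 166 cells and was lowest in the 15 min library. Gzmb, at 731, 1008 and 1106 CPM in the same order, was found in 108 of 166 cells. Prf1 was at 767, 1283 and 983 in 142 of 166 cells, and Ctsw at 824, 734 and 731 in 155 of 166. Of these 3, Ctsw had overlapping intervals in the 3 libraries and did not differ beyond counting error. Gzmc was a gene of few cells, with 151 UMIs in 7 of 166 cells, 66 of them in 1 cell of the 15 min library, and Gzmk had 1 UMI.

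Kidney T-gated cells had Nkg7, Xcl1 and Ctsw and little granzyme or perforin. Nkg7 stood at 881, 903 and 836 CPM in the control, 15 min and 60 min libraries and was found in 375 of 539 cells. Xcl1 was at 599, 153 and 579.6 and Ctsw at 332, 269 and 291. The order Nkg7, Xcl1, Ctsw held in the control and 60 min libraries, and in the 15 min library Xcl1 lay below Ctsw. Gzmb was at 57.3, 79.6 and 79.0 in 45 of 539 cells, and Prf1 at 40.5, 39.8 and 34.9 in 78 of 539. Gzma was at 20.9, 296 and 14.7 and Gzmc had 4 UMIs in all. The high Gzma value of the 15 min library came from 1 cell, which held 133 of the 149 UMIs, and without it the level was 32.3 (18.5 to 52.4), which overlapped the other libraries.

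Gzmk was found mainly in T-gated cells. They held 105 of its 130 kidney UMIs, in 57 of 539 cells, at 41.9, 51.7 and 30.0 CPM in the control, 15 min and 60 min libraries. The 198 T-gated cells with Cd8a or Cd8b1 and no Cd4 held 93 of these UMIs, in 24.2% (18.4 to 30.8) of them. The 3 libraries overlapped in this share, with 14 of 54, 7 of 34 and 27 of 110 CD8 cells. Gzma and Gzmk, which lie near each other on chromosome 13, were found together in 9 lymphocyte-gated kidney cells, out of 142 with Gzma and 58 with Gzmk. In tumor Gzmk had 1 UMI in all libraries, and its count of 0 in the 99 tumor CD8 cells allows, at 3 counts, a share of up to 3.03% of cells with a UMI.

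**Figure D2:**
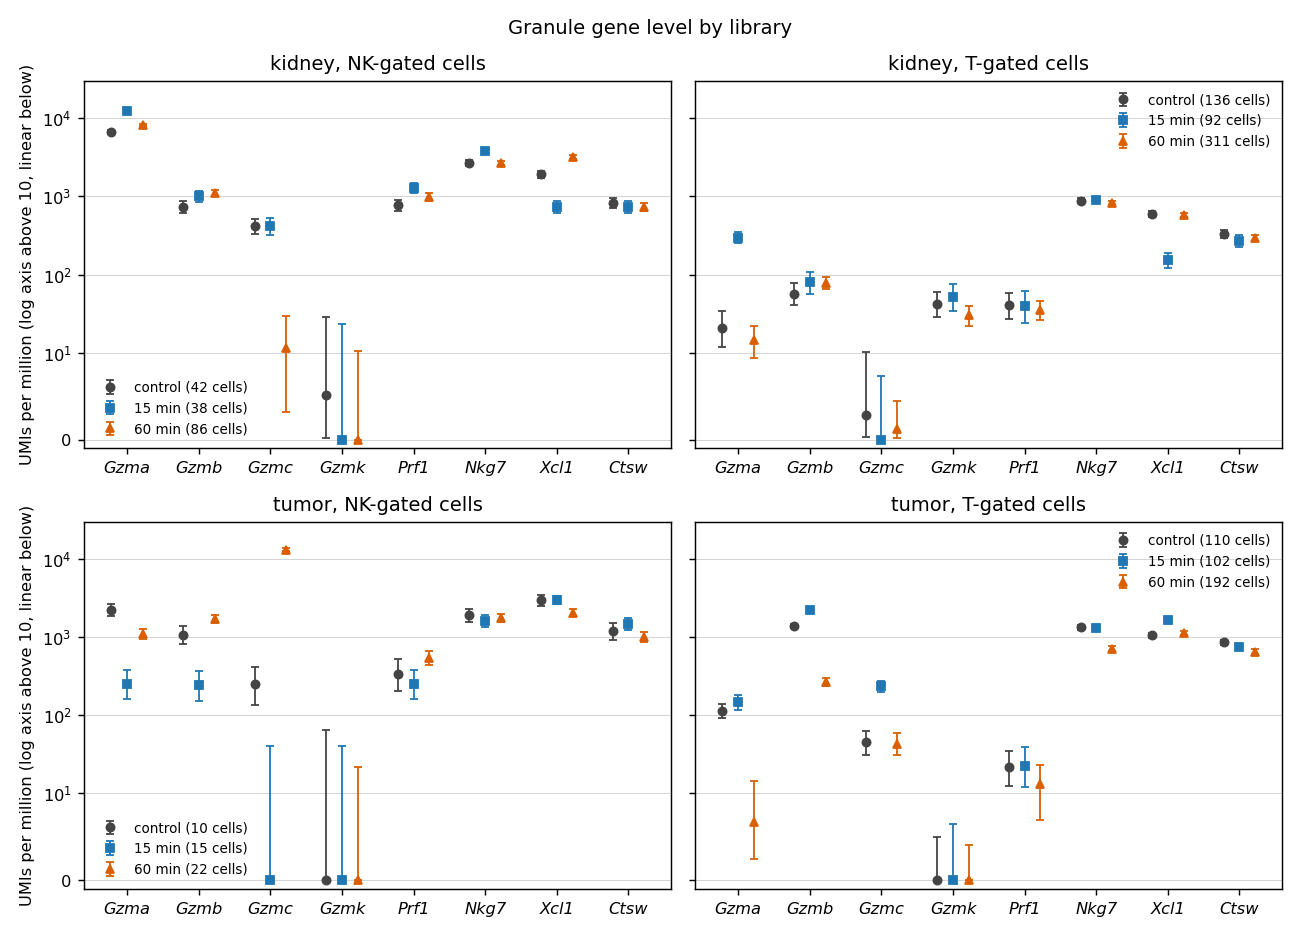
CPM (y axis, logarithmic above 10 and linear below) of the 8 genes in NK-gated and T-gated cells of each library, with exact Poisson intervals. Gzma, Gzmb and Prf1 lie higher in kidney NK-gated than in T-gated cells, Xcl1 of the 15 min kidney library lies below the other libraries in both classes, and Gzmc of the tumor 60 min library stands at 13228 in NK-gated cells.

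NK-gated cells with and without a Gzma UMI differed in the other members. This split was made after the values were seen, and the differences between its sides are descriptions. In kidney 118 NK-gated cells had a Gzma UMI and 48 had none, with median depths of 3718 and 4467 UMIs, so that the cells without Gzma were the more deeply read. Xcl1 was found in 47 of 48 cells without Gzma, at 4527 (4257 to 4809.8) CPM, and in 50 of 118 cells with it, at 1168 (1072 to 1270.0). Gzmb went the other way, at 1378 (1273 to 1488) in cells with Gzma and 181 (131 to 245) in cells without. Prf1 was at 1365 (1261 to 1475) and 237 (179 to 309) in the same order. Nkg7 was found in nearly every cell, 117 of 118 and 48 of 48, but at 3527 (3358 to 3701) and 1735 (1569 to 1913) CPM. Ctsw was found in 107 of 118 and 48 of 48, at 707 (633 to 788) and 859 (744 to 987).

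Genes outside the list, also chosen after values were seen, divided with Gzma. Eomes, a transcription factor of circulating NK cells, had a UMI in 81 of 118 kidney cells with Gzma and 2 of 48 without. Itgam, the gene of integrin alpha M, was found in 37 of 118 cells with Gzma and in 0 of 48 without. The reverse held for Cxcr6, a chemokine receptor of tissue-resident lymphocytes, found in 11 of 118 and 43 of 48, and for Itga1, the gene of the collagen-binding integrin CD49a, found in 6 of 118 and 23 of 48. In tumor, 15 NK-gated cells had Gzma and 32 had none, at median depths of 3053 and 6568 UMIs. Xcl1 was at 717 (521 to 963) CPM in those with Gzma and 2926 (2719 to 3144) in those without, and Prf1 at 1141 (889 to 1441) and 248 (191 to 317). Eomes was found in 10 of 15 and 15 of 32 of these tumor cells and Itga1 in 1 of 15 and 18 of 32.

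**Figure D3:**
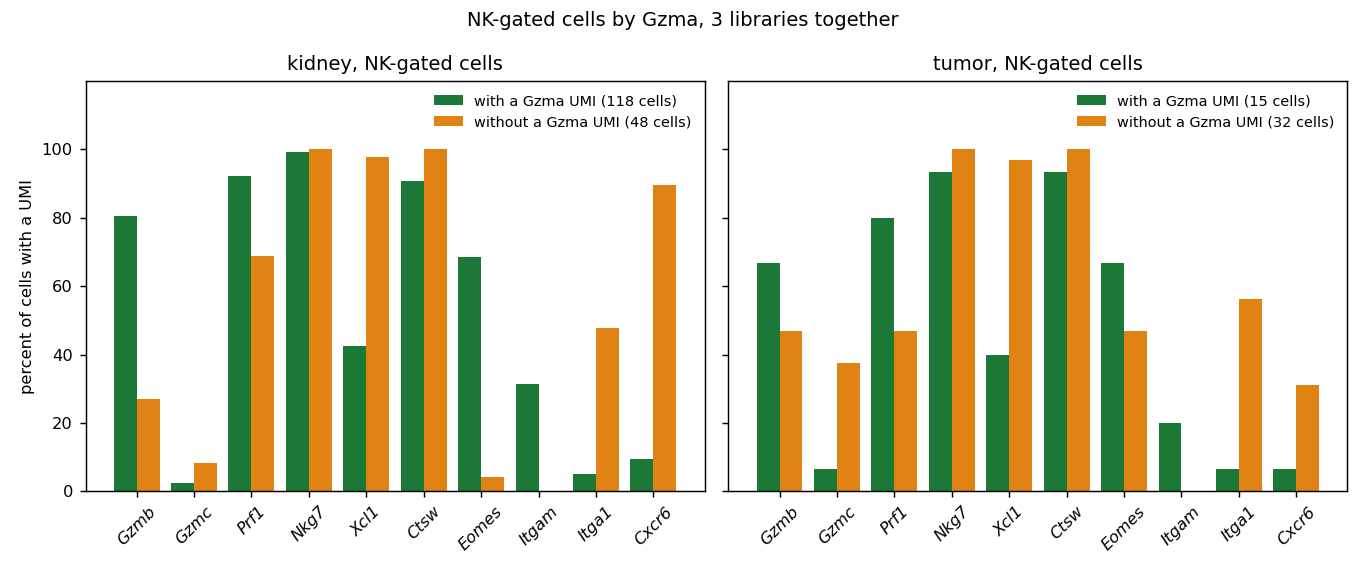
Share of NK-gated cells with a UMI (y axis, percent) of 6 members and 4 other genes, for cells with and without a Gzma UMI, libraries together. In both tissues Xcl1, Itga1 and Cxcr6 are found more often in cells without Gzma. Gzmb, Prf1 and Itgam are found more often in cells with it, also in both. Nkg7 and Ctsw are found in most cells on both sides, with kidney Ctsw in 107 of 118 cells with Gzma.

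Tumor NK-gated cells, 47 in all, carried Gzmc in 27.7% of cells, beside 4.22% of the kidney NK-gated cells. Gzmc had 2244 UMIs in 13 of 47 cells, at 249, 0 and 13228 CPM in the control, 15 min and 60 min libraries. Of the 2230 UMIs of the 60 min library, 702 lay in 1 cell, and without it the level was still 9421 (8955 to 9906). The libraries did not overlap in this gene, which rested on 3, 0 and 10 cells. Cells with an NK gate and another lineage are not in these values, and in the 15 min library they held up to 234 Gzmc UMIs in 1 cell. Gzma was at 2245, 254 and 1091 in 15 of 47 cells and Gzmb at 1069, 243 and 1708 in 25 of 47. Prf1 was found in 27 of 47 cells, at 338, 254 and 539.8, and each device interval overlapped the control in its counting error. Nkg7 stood at 1906, 1612 and 1762 and Ctsw at 1194, 1468 and 1002, and each was found in 46 of the 47 cells. Xcl1 was at 2975, 3014 and 2058 in 37 of 47 cells.

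Gzma and Gzmc were counted in the same NK-gated cells. In tumor 15 cells held Gzma and 13 held Gzmc, and 1 cell held both, with 10 of the 13 Gzmc cells from the 60 min library. In kidney 118 held Gzma and 7 held Gzmc, and 3 held both. Counted also among NK-gated cells that met another lineage, the tumor had 25 cells with Gzma, 33 with Gzmc and 2 with both. Gzmb accompanied either one: it was found in 10 of the 15 tumor cells with Gzma and 11 of the 13 with Gzmc. All 13 cells with Gzmc also held Xcl1, against 6 of the 15 with Gzma. The cells with Gzmc held 5052 to 21902 UMIs each, while the median of those with Gzma was 3053. The part of depth in these shares was not tested.

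**Figure D4:**
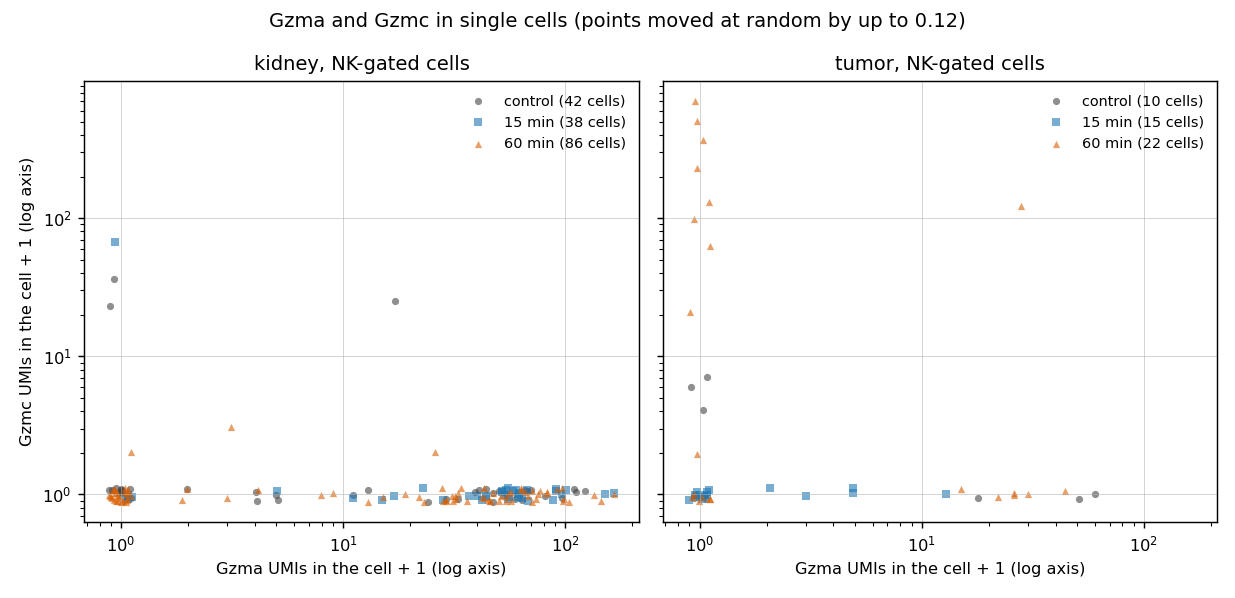
UMIs of Gzma (x axis) and of Gzmc (y axis) in each NK-gated cell, both plus 1 on logarithmic axes, with points moved slightly at random to show overlaps. Kidney cells spread along the Gzma axis and tumor cells along both axes, with 3 kidney cells and 1 tumor cell away from both.

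Gzmd, Gzme and Gzmf, genes of the group of Gzmc, were found in few cells, most of which also held Gzmc. Gzmd had 151 UMIs in 6 tumor cells, 5 of them with Gzmc, and Gzme had 36 UMIs in 5 cells, 4 of them with Gzmc. Gzmf had 20 UMIs in 7 cells, 5 with Gzmc. Much of this lay in single cells, with 128 of the Gzmd, 26 of the Gzme and 12 of the Gzmf UMIs in 1 cell each. A T or NK gate was met by 3 of the 6 cells with Gzmd, 2 of the 5 with Gzme and 5 of the 7 with Gzmf. All 3 genes were at 0 UMIs in kidney. Gzmd, Gzme, Gzmf and Gzmg share 50-base words at the ends of their transcripts (1 to 23 of 351 words in the last 400 bases for the pairs that share any), so that the split of reads among these is uncertain, whereas Gzma, Gzmb, Gzmc and Gzmk shared none with any other of the 10 granzymes compared.

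In tumor T-gated cells Gzmb, Xcl1 and Nkg7 were the 3 highest members of the control and 15 min libraries, while at 60 min Gzmb lay below Ctsw. Gzmb was at 1377, 2227 and 268 CPM in the control, 15 min and 60 min libraries and was found in 102 of 404 cells. Xcl1 was at 1052, 1660.5 and 1136, Nkg7 at 1332, 1297 and 713 and Ctsw at 855, 753 and 654. In all 3 libraries these T-gated levels lay above the kidney ones for Gzmb, Xcl1 and Ctsw, on scales set separately. Gzmc was at 44.8, 234 and 43.4 in 31 of 404 cells, Gzma at 114, 147 and 6.68 in 13 of 404, and Prf1 at 21.7, 22.7 and 13.4 in 28 of 404. Perforin transcripts were thus rare beside those of granzyme B: the Gzmb level of tumor CD8 cells was 1859 CPM (1767 to 1954) and the Prf1 level 32.8 CPM (21.6 to 47.7).

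Within the tumor T gate the genes followed the subset. The 99 CD8 cells held Gzmb at 1761, 3056 and 668 CPM and Xcl1 at 1208, 2613 and 2321 in the control, 15 min and 60 min libraries. The 60 cells with Trdc and a gamma chain gene, called gamma-delta-gated, held Gzmb at 1661, 3515 and 76.4 and Xcl1 at 985, 2240.3 and 2271, with Xcl1 in 55 of 60 and Nkg7 in 56 of 60 cells. Gzmb of the 60 min library was thus the lowest of its 3 values in both subsets, and Xcl1 was lowest in the control. Trbc2 was found in 93.3% and Klrd1 in 83.3% of the gamma-delta-gated cells, so that this gate also took cells with a T cell receptor beta transcript. The 60 CD4 cells had 0 UMIs of Gzma, Gzmb, Gzmk and Prf1, which allows, at 3 counts, a share of up to 5.00% of cells with a UMI of each. They had 2 UMIs of Nkg7, 1 of Xcl1 and 24 of Ctsw, the last in 15 of 60 cells. Of the 15 CD8 cells with Gzmc, 14 also held Gzmb, and all 15 held Xcl1.

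Outside lymphocytes, Prf1 of kidney endothelial cells stood apart. The control, 15 min and 60 min libraries held 15, 6 and 50 of its UMIs, in 62 of 2982 endothelial-gated cells, 2.08% (1.60 to 2.66). In proximal tubule cells, with a median of 6735 UMIs against 3745.5 in endothelial cells, the share was 0.0554% (0.0223 to 0.114). The other 7 members had 0 to 13 UMIs in endothelial cells and were found in at most 0.436% (0.232 to 0.744) of them. Of Prf1 and Nkg7 UMIs together, Prf1 made up 84.5% (75.0 to 91.5) in endothelial cells, 25.3% (23.6 to 26.9) in NK-gated and 17.1% (7.15 to 32.1) in proximal tubule cells. Of the 62 cells, 1 held another member and 0 held Ptprc, the gene of the leukocyte antigen CD45, and their median depth was 3646 UMIs. Ptprc was found in 0.905% of all endothelial-gated cells and the other members were as rare, so that these counts do not set the 62 cells apart from their class. The Prf1 level of endothelial cells was 6.90, 4.90 and 6.13 CPM in the 3 libraries. In tumor endothelial cells Prf1 had 4 UMIs in 3 of 1174 cells.

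A few other cells also held members. Of 9 kidney cells gated as mast cells or basophils, 4 held Gzmb, with 5, 18, 19 and 35 UMIs, and all 4 held Mcpt8, a basophil protease gene of the gate's list, as did 3 of the 5 without Gzmb. The cell with 35 also held 4 Gzmc UMIs, and the cell with 5 held 1 of Nkg7. The 5 tumor cells of this gate held Cma1 and Tpsb2, genes of mast cell proteases, and had 0 UMIs of all 8 members. In tumor endothelial cells Ctsw had 42 UMIs in 2.90% (2.01 to 4.02) of cells, against 1.01% (0.815 to 1.23) of epithelial cells. Gzmc was found in 18 of 462 stroma-gated tumor cells, 3.90% (2.33 to 6.09), against 0.439% (0.315 to 0.596) of epithelial cells, in which 335 of its 554 UMIs lay in 1 cell. The median depth was 9025.5 UMIs in epithelial, 9148 in stroma-gated and 6720 in endothelial cells of tumor, and free RNA as a source of these UMIs was not tested.

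The device intervals were compared with the control in each lymphocyte class. In kidney NK-gated cells the sum of the 8 genes was 1.45 (1.38 to 1.53) times the control at 15 min and 1.20 (1.15 to 1.26) times at 60 min. The value at 60 min lay nearer to the control under several alternatives of gate and depth given below. Much of the sum was Gzma, with 1934 of the 3184 UMIs at 15 min and 1286 of 2702 in the control. Among genes with at least 50 UMIs in both libraries together, 24.6% of 939 differed by 1.5-fold or more at 15 min and 16.8% of 1546 at 60 min. Of 7 members that met the minimum, Gzma and Prf1 were past this fold upward and Xcl1 downward at 15 min, and Gzmb and Xcl1 upward and Gzmc downward at 60 min. The median log2 ratio of the members was 0.46 and 0.29, beside 0.06 and 0.02 over all genes.

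Kidney Xcl1 was lower at 15 min in each lymphocyte class gated by 2 genes, while gates of 1 gene left 1 and 5 NK-gated cells and a log2 ratio of 0.60. Its ratio to the control was 0.384 (0.308 to 0.474) in NK-gated, 0.256 (0.198 to 0.327) in T-gated and 0.282 (0.184 to 0.418) in CD8 cells. Cells that passed both gates held 3812, 808 and 1877 CPM in the control, 15 min and 60 min libraries, and those with another lineage 772, 367 and 857. Xcl1 was found in 64.3, 36.8 and 65.1% of NK-gated cells, and in 21 of 42, 10 of 38 and 50 of 83 after each cell was thinned to 1000 UMIs. At 60 min the ratio was 1.66 (1.48 to 1.88) in NK-gated and 0.967 (0.862 to 1.09) in T-gated cells. Split by Gzma, Xcl1 of the cells with Gzma was 1058 (881 to 1261), 207 (136 to 301) and 1802 (1628 to 1989) CPM in the control, 15 min and 60 min libraries. Cells without Gzma held 3263 (2866 to 3699), 3366 (2699.9 to 4147) and 5483 (5089 to 5899), and made up 33.3% (19.6 to 49.5), 13.2% (4.41 to 28.1) and 33.7% (23.9 to 44.7) of NK-gated cells. The lower level at 15 min was thus present in cells with Gzma, while the level in the 5 cells without Gzma overlapped the control.

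Kidney Gzma had a ratio of 1.85 (1.72 to 1.99) in NK-gated cells at 15 min, Prf1 1.67 (1.35 to 2.08), Nkg7 1.42 (1.26 to 1.60) and Gzmb 1.38 (1.09 to 1.74). Gzma had a UMI in 66.7, 86.8 and 66.3% of NK-gated cells of the 3 libraries, and whether the 15 min library held more RNA of these genes per cell or more of the cells that carry them was not tested. At 60 min, Gzmb had a ratio of 1.51 (1.25 to 1.85). It was 1.38 (1.13 to 1.69) without the 60 min cell that held 40 of the 386 UMIs, with the control whole. With the highest cell left out of each library, Gzmb was at 1006 CPM at 60 min and 634 in the control. Gzma had a ratio of 1.23 (1.15 to 1.31), while Nkg7 1.00 (0.898 to 1.12) and Ctsw 0.887 (0.725 to 1.09) had intervals that held 1. Gzmc had 81, 66 and 4 UMIs, in 3, 1 and 3 cells.

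In kidney T-gated cells only Xcl1 and Gzma were past 1.5-fold among the members tested. At 15 min 18.4% and at 60 min 12.5% of all genes with 50 UMIs were past 1.5-fold. Of 6 members tested at each interval, Xcl1 was past it downward and Gzma, through 1 cell, upward at 15 min, and none was at 60 min. Nkg7 had ratios of 1.02 (0.907 to 1.16) and 0.949 (0.863 to 1.04), and Ctsw of 0.808 (0.649 to 1.00) and 0.876 (0.748 to 1.03). Gzmk had ratios of 1.23 (0.701 to 2.16) and 0.717 (0.446 to 1.17), which leave room for differences in either direction.

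**Figure D5:**
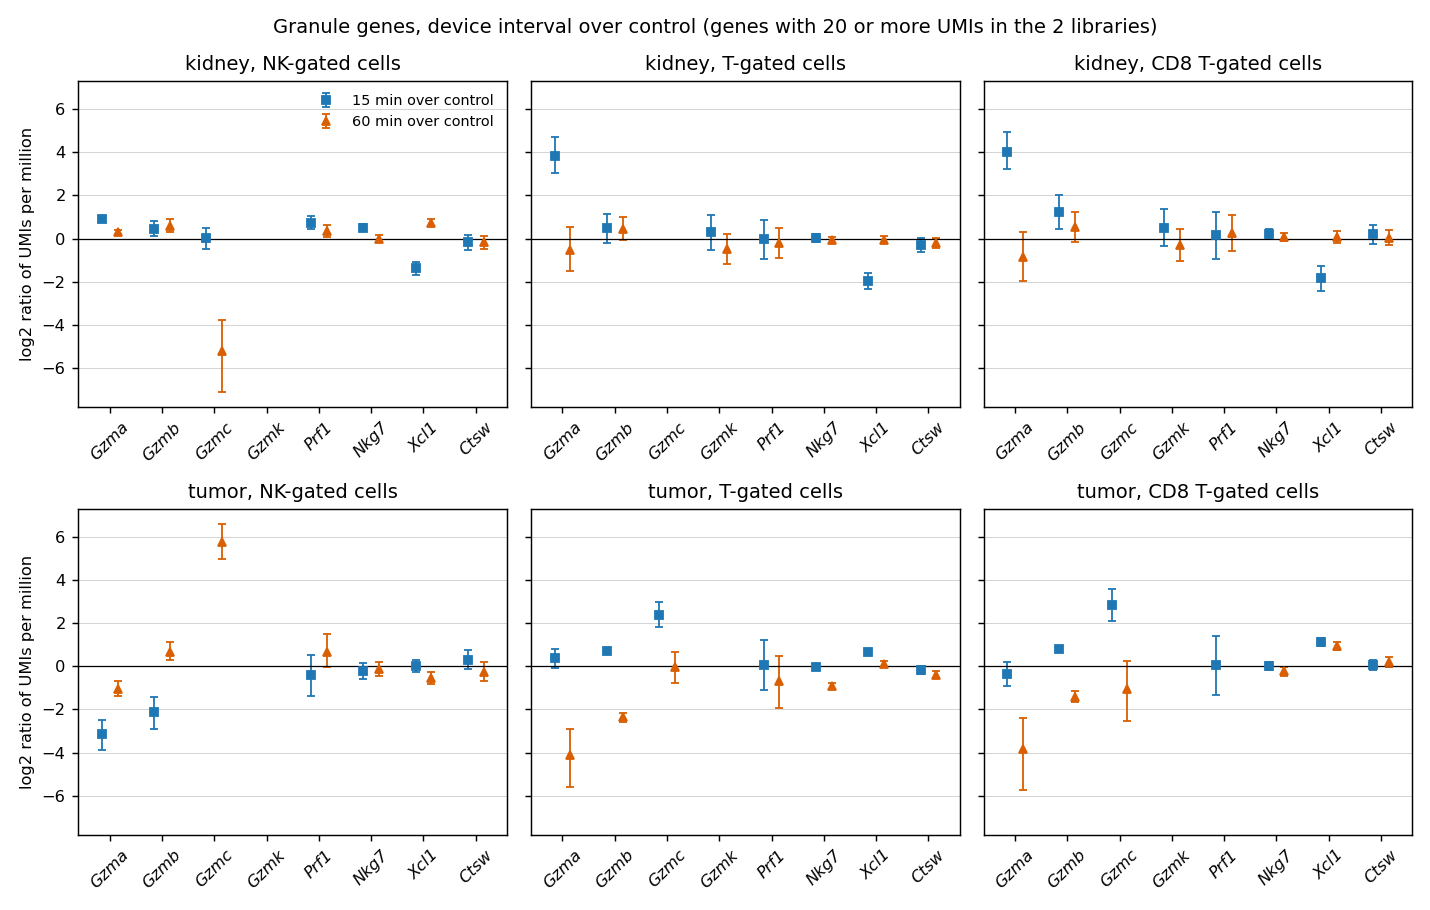
Log2 ratio of CPM, device interval over control (y axis), with exact conditional intervals, for members with at least 20 UMIs in both libraries together. Kidney Xcl1 at 15 min lies below 0 in all 3 classes, tumor Gzmb at 60 min lies below 0 in T-gated and CD8 cells and above 0 in NK-gated cells, and Nkg7 of kidney T-gated cells lies near 0 at both intervals.

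In tumor T-gated cells Gzmb lay above its control level at 15 min and below it at 60 min. Of all genes with 50 UMIs, 22.5% were past 1.5-fold at either interval, and of 6 members tested Gzmb, Gzmc and Xcl1 were past it upward at 15 min and Gzma, Gzmb and Nkg7 downward at 60 min. The median log2 ratio of the members was 0.51 and -0.64, beside 0.07 and -0.05 over all genes. The ratio of Gzmb was 1.62 (1.49 to 1.76) and 0.195 (0.169 to 0.225). In CD8 cells it was 1.73 (1.56 to 1.93) and 0.379 (0.316 to 0.453), and in gamma-delta-gated cells 2.12 (1.80 to 2.49) and 0.0460 (0.0227 to 0.0833). Of the 1274 UMIs at 15 min, 227 lay in 1 CD8 cell. Without it, and with the control whole, the ratio was 1.37 (1.25 to 1.49) in T-gated and 1.32 (1.18 to 1.49) in CD8 cells. With the highest cell left out of each library, Gzmb was at 1884 CPM at 15 min and 1271 in the control in T-gated cells. In CD8 cells it was then at 2334 and 1534. The ratio of Xcl1 in T-gated cells at 15 min was 1.45 (1.32 to 1.60) without its highest 15 min cell and with the control whole. With the highest cell left out of each library, Xcl1 was at 1527 CPM at 15 min and 962 in the control. Cells with a T or NK gate and another lineage held Gzmb at 1670.0, 1434 and 535 CPM in the control, 15 min and 60 min libraries. The lower Gzmb at 60 min was thus seen in each of these classes, while at 15 min the last of them was lower and not higher. The share of CD8 cells with a Gzmb UMI differed less than the level, at 19 of 37, 15 of 31 and 15 of 31 cells. T-gated cells without a subset gene numbered 35, 37 and 108, and the part of this in the T-gated ratios was not tested. The median depth of T-gated cells was 6298.5, 4015.5 and 3716 UMIs. With each cell thinned to 1000 UMIs, Gzmb was found in 31 of 105, 19 of 102 and 16 of 186 T-gated cells, so that at equal depth the share at 15 min was not above that of the control, and the log2 ratio of the 8 genes' sum was 0.059 at 15 min and -1.12 at 60 min, beside 0.40 and -0.76 without thinning.

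Tumor Xcl1 was higher at both device intervals in CD8 and gamma-delta-gated cells. Its ratio in CD8 cells was 2.16 (1.91 to 2.45) at 15 min and 1.92 (1.68 to 2.19) at 60 min, and in gamma-delta-gated cells 2.27 (1.85 to 2.80) and 2.31 (1.93 to 2.76). At 60 min Xcl1 and Gzmb therefore lay on opposite sides of the control in both subsets. Nkg7 of CD8 cells had ratios of 1.02 (0.901 to 1.16) and 0.854 (0.742 to 0.981), and Ctsw 1.04 (0.877 to 1.23) and 1.15 (0.971 to 1.37). Gzmc of T-gated cells had a ratio of 5.22 (3.55 to 7.89) at 15 min. It was 2.74 (1.78 to 4.28) without the 15 min cell that held 65 of the 134 UMIs, with the control whole. With the highest cell left out of each library, Gzmc was at 123 CPM at 15 min and 27.5 in the control. Gzma of T-gated cells had a ratio of 0.0585 (0.0209 to 0.133) at 60 min, from 84 and 6 UMIs, with 58 of the control's in 1 cell. With cells of another lineage counted, the log2 ratio of Gzmc at 15 min was -0.55.

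The NK-gated tumor cells numbered 10, 15 and 22 and give values of few cells. At 15 min 18.2% and at 60 min 22.6% of all genes with 50 UMIs were past 1.5-fold. Of 5 members tested at 15 min, Gzma and Gzmb were past it downward, with ratios of 0.113 (0.0692 to 0.177) and 0.227 (0.133 to 0.376). Of 7 tested at 60 min, Gzmc, Gzmb and Prf1 were past it upward and Gzma downward. Gzmc had a ratio of 53.0 (31.5 to 97.2) and Prf1 of 1.59 (0.965 to 2.77), the second with an interval that held 1. The cell with most UMIs of the gene was then left out of the 60 min library, with the control whole. The ratios were 37.8 (22.4 to 69.3) for Gzmc, 1.34 (1.00 to 1.81) for Gzmb and 1.41 (0.846 to 2.48) for Prf1. With the highest cell left out of each library, Gzmb was at 1430 CPM at 60 min and 622 in the control. Prf1 was then at 479 and 207, so that both stayed past 1.5-fold. The sum of the 8 genes was 0.686 (0.611 to 0.771) and 2.14 (1.96 to 2.35) times the control. The rise of the sum at 60 min lay in Gzmc, with 2230 of the 3606 UMIs, against 14 of 560 in the control. The median log2 ratio of the 7 members tested at 60 min was -0.11. Many of the UMIs lay in single cells: in the control, 59 of the 126 Gzma UMIs and 84 of the 167 Xcl1 UMIs lay in 1 cell each. With cells that met another lineage counted as well, an alternative chosen after the values were seen, the log2 ratio of the sum at 15 min turned from -0.54 to 0.23 and that of Gzma from -3.14 to 0.20. Such cells also held Gzmc, with up to 129 UMIs in 1 control cell and 234 in 1 cell of the 15 min library. The Gzmc ratio above leaves these cells out, so that it holds only for NK-gated cells with no other lineage.

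Other genes of the granule pathway were taken from a list of 31. In kidney 24 and in tumor 19 of them had more than 50 UMIs in NK-gated or T-gated cells. Srgn, the gene of the proteoglycan that packs granzymes, stood at 1119.8, 638 and 1264 CPM in the control, 15 min and 60 min libraries of kidney NK-gated cells and at 1129.8, 611 and 1213 in T-gated cells, lower at 15 min in both. Serpinb9, the inhibitor that shields the cell from its own granzyme B, was at 897, 377 and 622 in kidney NK-gated cells and Serpinb6b, a related inhibitor, at 715, 389 and 811. Tumor Serpinb9 was at 695, 199 and 439 in NK-gated and 234, 82.2 and 86.8 in T-gated cells, highest in the control in both. Of the exocytosis genes, Unc13d and Stxbp2 reached at most 107 CPM in NK-gated or T-gated cells of any library, and Stx11 was at 21.7, 33.2 and 137 in tumor T-gated cells. In kidney NK-gated cells 13 of the 31 genes could be compared at 15 min, with 4 past 1.5-fold upward and 5 downward (24.6% of all genes in either direction), and 16 at 60 min, with 4 upward and 0 downward (16.8%). In kidney T-gated cells 14 were compared at 15 min, with 0 upward and 8 downward (18.4%), and 22 at 60 min, with 3 upward and 1 downward (12.5%). In tumor NK-gated cells 5 were compared at 15 min, with 0 upward and 3 downward (18.2%), and 9 at 60 min, with 2 upward and 2 downward (22.6%). In tumor T-gated cells 12 were compared at 15 min, with 1 upward and 2 downward, and 16 at 60 min, with 5 upward and 3 downward (22.5% at each), so that the first was near the share of all genes.

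Effector ligands were measured beside Xcl1. Ccl5 was the highest of those listed, at 12027 CPM in kidney NK-gated cells and 2799 in T-gated cells, and 3019 and 734 in tumor. Ccl4 stood at 1032, 1736 and 9525 in the control, 15 min and 60 min libraries of kidney NK-gated cells, so that the 60 min library was the highest, as it was for Xcl1. Interferon gamma (Ifng) was at 275, 115 and 636 in kidney NK-gated, 293, 125 and 339 in kidney T-gated and 4.08, 61.2 and 167 in tumor T-gated cells. The Fas ligand gene Fasl was at 202, 313 and 373 in kidney NK-gated and 124, 37.8 and 157 in T-gated cells. In kidney T-gated cells Xcl1, Srgn, Ifng, Ccl4 and Fasl were thus all lowest at 15 min, as was Ctsw, while Nkg7, Gzmk and Prf1 were not. Xcr1, the receptor of XCL1 and a marker used to gate dendritic cells, had 1 UMI in T-gated kidney cells, 4 in T-gated tumor cells and 0 in NK-gated cells of either tissue.

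The genes most like the members in level were named by the correlation of their log2 level with the mean log2 level of the 8 genes over sums by class and library, 27 in kidney and 25 in tumor. These sums share libraries and depth, so that the correlation is a description. In kidney the 3 most alike of 13455 genes were Klrc2 (r = 0.99), Samd3 and Fasl, followed by Klrc1, Il2rb, Tbx21, Cd96, Cd160, Gm14029 and Eomes. In tumor the order of 13975 genes began with Fasl (r = 0.99), Il2rb and Tbx21. Il2rb, the shared beta chain of the interleukin 2 and 15 receptors, Tbx21, Cd160, Samd3 and Fasl were among the 10 of both tissues.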

How the data were processed

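Single-cell RNA sequencing libraries of 3 kidney and 3 mammary tumor cell suspensions were analysed from the matrices deposited by the authors. Per the submitters' processing notes and the study's methods, reads were aligned to mm10 with Cell Ranger 3.1.0 and libraries of a tissue were aggregated with depth evened, and the authors deposited the resulting matrices as UMI counts, without their own filters on cells. Depth is partly equalised by this step, which discards UMIs of the deeper libraries. Cells were assigned to libraries by barcode suffix and the deposited aggregation table.

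Cells with 200 to 3000 genes (kidney) or 200 to 4000 genes (tumor) and at most 50% or 25% mitochondrial UMIs were kept, after the study's methods. A class claimed a cell with UMIs of at least 2 genes of its list (11 lists in kidney, 10 in tumor). Cells claimed by several lineages were set apart and no doublet caller was run. The 8 members were all named, and the related genes by a minimum of 50 UMIs. The members and lists were chosen with earlier results of these data known. Levels, shares and ratios came with exact intervals from Python 3.11.15, numpy 2.4.6, scipy 1.17.1 and pandas 2.3.3, and figures from matplotlib 3.10.9. The fold comparison was checked on simulated data. Alternatives changed the filters, the gate, the minimum, the fold and the depth by thinning to 1000 UMIs. The split of NK-gated cells by Gzma, its marker genes and the motifs were chosen after values were seen, and 1 gene of that comparison is not reported here. Upstream sequence came from RefSeq.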

Additional observations from a re-analysis of the deposited data

How the results depend on the processing

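Each of 94 summary values under an alternative and 426 values of single genes was recomputed with 1 choice changed. Of the first, 42 moved by less than their counting interval or, for counts, by less than 1.5-fold, 45 moved by more and 7 changed sign. Of the second, 319, 92 and 15 did so. The share of granule gene UMIs in lymphocyte-gated cells (75.7% kidney, 39.3% tumor) was 68.5 and 34.8% with no upper gene limit, 83.8 and 68.2% with gates of 3 genes, 7.28 and 4.13% with gates of 1 gene, 97.3 and 91.9% with each cell assigned to 1 class, 79.3 and 44.3% with cells thinned to 1000 UMIs, and 97.4 and 92.0% with T or NK gates regardless of another lineage. Gates of 1 gene left 119 kidney and 78 tumor lymphocyte-gated cells.

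The log2 ratios of the 8 genes' sum are given next in the order NK at 15 min, NK at 60 min, T at 15 min and T at 60 min, where they moved. In kidney, gates of 3 genes gave 0.40, 0.11, -0.38 and -0.22. Gates of 1 gene gave -0.29 for NK and -0.85 for T at 15 min. Assignment to 1 class gave 0.43 and -0.0078 for NK. Thinning gave 0.064 for NK and 0.11 for T at 60 min, and counting cells regardless of another lineage 0.075 for NK at 60 min. In tumor, gates of 3 genes gave 0.090 and 0.81 for NK. Gates of 1 gene gave 0.85, 0.18, -0.0049 and -1.15. Assignment gave 0.23, 0.78, 0.13 and -1.07, and counting regardless of another lineage 0.23, 0.58, 0.12 and -1.13. Thinning gave -0.78 for NK at 15 min, and 0.059 and -1.12 for T.

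The share of all genes past the fold was 7.14, 4.01, 5.61 and 2.08% in kidney and 8.06, 8.21, 6.90 and 7.81% in tumor at 2-fold, in that order. With a minimum of 20 UMIs it was 26.9% (NK) and 20.7% (T) in kidney at 60 min, and 32.2 and 36.2% in tumor NK-gated cells at 15 and 60 min.

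Single genes changed sign as follows. In kidney NK-gated cells, gates of 1 gene gave log2 ratios of -2.88 for Gzma and 0.60 for Xcl1 at 15 min and -0.61 for Prf1 at 60 min, assignment gave -0.039 for Gzma at 60 min, and thinning -0.098 for Prf1 at 60 min. In tumor NK-gated cells Gzma at 15 min was 0.52 with gates of 3 genes and 0.20 with assignment or regardless of another lineage, and Xcl1 at 60 min was 0.63 with gates of 3 genes and 0.15 with thinning. In tumor T-gated cells, gates of 1 gene gave -0.79 for Gzmb and 0.33 for Ctsw at 15 min and 0.18 for Ctsw at 60 min, and Gzmc at 15 min was -0.54 with assignment and -0.55 regardless of another lineage. The cause was not tested. No paired analysis was possible because each condition had 1 library and the groups share fewer than 2 replicate numbers. Gzmk is limited by few UMIs, and tumor NK-gated values by few cells (10, 15 and 22).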

Other observations

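Transcription factor genes known from cytotoxic lymphocytes were measured in the same classes. Tbx21, which drives the effector program of NK and CD8 T cells, stood at 116 and 41.4 CPM in kidney NK-gated and T-gated cells and 76.1 and 25.4 in tumor. Eomes, its relative, stood at 248 and 20.7 CPM in kidney NK-gated and T-gated cells and 159 and 9.07 in tumor, and Zeb2, a factor of terminal effector cells, at 210.5 and 27.4 CPM in kidney NK-gated and T-gated cells and 25.4 and 7.71 in tumor. Each of the 3 was higher in NK-gated than in T-gated cells of both tissues. Gzmm, a granzyme outside the 8 genes, had 123 UMIs in 86 kidney cells, 41 of them with a T or NK gate, and 62 UMIs in 61 tumor cells, 7 of them with such a gate. In kidney, 33 of 87 CD4 cells held an Xcl1 UMI, and 44 of 87 held Nkg7.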
